A study of Mus musculus with 18 samples.

Results

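The genes described here build cholesterol and fatty acids from acetyl-CoA, or regulate and carry out related steps, and 33 of them were listed by name. Of the 33, 7 belong to the mevalonate arm of cholesterol synthesis, 11 to the sterol arm, 5 are regulators, 1 is a sterol carrier and 9 belong to fatty acid synthesis. Their probes were 51 of the 45281 on the array, and each gene was represented by its probe with the highest mean level. A probe carried the name of 30 of the 33 genes. The 28 genes whose probe was detected on at least 3 complete arrays were tested, within a test of 10529 genes in all. Hmgcs1, Fdft1 and Acat2 had no probe of that name in the gene table and were not analysed here, and the probes of Fasn and Acaca were not detected on enough arrays.

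Mast cells grown from bone marrow (BMMCs) of C57BL/6J mice aged 4 to 6 weeks were either wild type (WT) or ST2 knockout (ST2KO), whose receptor for the cytokine IL-33 is missing. Cells of each genotype were left unstimulated, stimulated for 4 h with IgE, or stimulated for 4 h with IL-33, with 3 arrays in each of the 6 groups, 18 in all. The labels give no dose, antigen or promoter, and the sample descriptions number the cultures 1 to 3 within each genotype, so arrays of one number were treated as one culture. Basophil samples of the series were not used here. Levels are log2 intensities after background correction and quantile normalization, and changes are log2 differences with their standard error (SE) from limma, fitted with the culture as a block and tested at an adjusted p of 0.05.

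Cholesterol is made through mevalonate and squalene, and fatty acids through malonyl-CoA, by enzymes whose genes share a pair of related transcription factors, the sterol regulatory element-binding proteins encoded by Srebf1 and Srebf2. When sterols are low, the escort protein Scap carries these factors out of the endoplasmic reticulum for cleavage, and the Insig proteins hold them back when sterols are high. In mast cells, sterols and lipids form the membranes in which the IgE receptor signals and from which granules and lipid mediators are released.

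On the 17 complete arrays 35.1% to 38.6% of probes were detected, and the middle probe's intensity lay between 86.4 and 97.9. On the array ST2KO IgE number 3, intensities were given for 10012 of 45281 probes, which covered 2 of the 28 genes. All values on that array were placed by their rank in the authors' own table. All 10 mast cell markers were tested, and 9 of them, among them Kit, Fcer1a, Cpa3 and Cma1, had a mean log2 level of 10.41 to 15.04, with Mitf at 5.15. Of 12 macrophage and dendritic cell markers 7 were tested, from C1qa at 4.55 to H2-Ab1 at 8.62. Itgax, Mrc1, Fcgr1 and C1qb were not detected on enough arrays. Of 7 neutrophil markers, Camp alone was tested, at 4.53. Of 4 basophil markers 3 were tested, Mcpt8 at 8.01, Prss34 at 8.05 and Cd200r3 at 12.45. The Cd200r3 level lies within the range of the 9 mast cell markers. Il1rl1, which encodes ST2, had no probe of that name, so no value of the deleted gene was at hand to set against the genotype. The number of arrays limited the precision, with a median 95% interval of 0.35 log2 units to either side for a stimulus, 0.37 for the genotypes and 0.50 for a difference between responses.

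In every group the array numbered 3 had lower levels of most of these genes than arrays 1 and 2, as the choice of paired changes presupposes, and the offset is given as a description. The median over the 28 genes was -1.21 log2 units, against -0.04 over all genes tested. For 21 of the 28 genes array 3 was below the mean of arrays 1 and 2 in all 6 groups. For 11 genes (39.3%) it was over 2-fold below in all 6, against 0.788% of all genes. These 11 were Mvd, Idi1, Fdps, Sqle, Cyp51, Msmo1, Nsdhl, Hsd17b7, Stard4, Scd1 and Fads2. The offset was widest for Scd1, a fatty acid desaturase gene, at a median of -3.58, and for Sqle, the squalene epoxidase gene, at -2.81. It was positive for Acss2, an acetyl-CoA synthetase gene, at 0.90, and for Insig2 at 0.58. Among the regulators it was -0.23 for Srebf1, -0.61 for Srebf2 and -1.20 for Insig1.

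**Figure D1:**
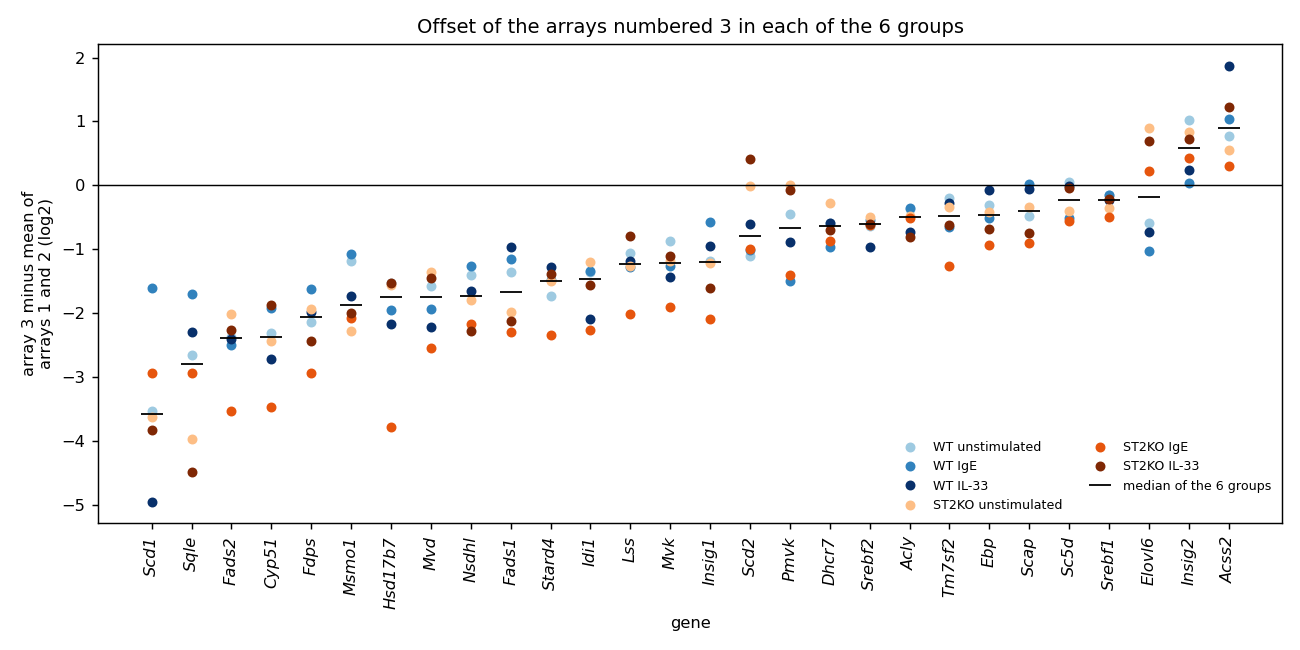
Level on array 3 minus the mean of arrays 1 and 2 (log2, y axis) for each of the 28 genes (x axis), with 1 point for each of the 6 groups and a bar at their median. Scd1 and Sqle lie lowest, at medians of -3.58 and -2.81, and Insig2 and Acss2 lie above 0.

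The mean level of the 15 tested mevalonate and sterol genes showed the same split, at 7.37, 7.52 and 6.27 on WT unstimulated arrays 1, 2 and 3. It was 8.56, 8.48 and 7.22 with IgE and 7.90, 7.84 and 6.45 with IL-33. In ST2KO cells it was 7.27, 7.05 and 5.80 unstimulated, 8.52, 8.42 and 6.39 with IgE, and 7.26, 7.24 and 5.81 with IL-33. Within each number the IgE array was the highest of the 3 in both genotypes. Other gene lists also moved with array 3. The 16 cell cycle genes tested had a median offset of -1.14, with 14 below 0 in all 6 groups, and the 10 housekeeping genes had a median of -0.28. The 10 mast cell markers had a median of 0.04, with 1 over 2-fold higher in all 6 groups. By gene, their highest offset was 5.69. The 3 basophil markers ran from -3.54 to 2.54 by gene, with 1 over 2-fold lower and 1 over 2-fold higher in all 6 groups. The 7 macrophage and dendritic cell markers had a median of 0.23, with 2 over 2-fold higher in all 6. Their summed level, as log2, ran from 9.63 to 12.3 in WT unstimulated, 9.33 to 11.9 in WT IgE and 10.1 to 12.8 in WT IL-33 cells. It ran from 9.13 to 10.8 in ST2KO unstimulated, 8.87 to 10.6 in ST2KO IgE and 9.49 to 10.9 in ST2KO IL-33 cells, and array 3 had the highest value in each group. The part of these markers in the offset was not tested. In RNA of whole cultures, fewer cells of a type and less RNA per cell cannot be told apart.

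The first comparison was of IgE stimulation with no stimulation in WT mast cells. Most of the cholesterol synthesis genes rose, and Scd1 rose most, by 4.69 ± 0.42 log2 units or 25.8-fold. Of the 28 genes, 18 rose and 2 fell, while 14.6% of all genes tested rose and 17.9% fell, 32.5% together. The median change was 0.72 over the 28 genes and -0.03 over all genes. The 15 mevalonate and sterol genes gave 10 rises and no fall, the regulators 3 of 5, the sterol carrier gene Stard4 1 of 1, and the 7 fatty acid genes 4 rises and 2 falls. Without the culture block 2 of the 28 passed, Srebf1 and Scd2, against 11.9% of all genes. The other 18 then had an adjusted p from 0.055 for Scd1 to 0.771 for Fads1. Markers of other cell types changed too. Of the 7 macrophage and dendritic cell markers 2 fell and none rose, Lyz2 by 0.71 ± 0.14 and Adgre1 by 0.60 ± 0.19 (adjusted p = 0.00118 and 0.0227). Of the 3 basophil markers Mcpt8 rose by 1.40 ± 0.31 and Prss34 fell by 0.84 ± 0.16 (adjusted p = 0.00249 and 0.000777), and of the 10 mast cell markers 2 rose and 3 fell. The part of these markers in the changes was not tested.

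Of the 5 mevalonate genes, 4 rose. Fdps, the farnesyl diphosphate synthase gene, stood at 10.42, 10.58 and 8.36 on unstimulated arrays 1, 2 and 3 and at 11.88, 11.74 and 10.18 on the IgE arrays, a change of 1.47 ± 0.16 (adjusted p = 6.60e-06). Mvd, which encodes the decarboxylase of the arm, stood at 6.52, 6.48 and 4.93 unstimulated and 8.58, 8.11 and 6.41 with IgE, a change of 1.72 ± 0.23 (adjusted p = 3.65e-05). Idi1, the isopentenyl diphosphate isomerase gene, stood at 5.56, 6.28 and 4.56 unstimulated and 7.35, 7.52 and 6.08 with IgE, a change of 1.52 ± 0.24 (adjusted p = 0.000164). For these 3 genes the value with IgE was higher within every number, while the groups overlapped, with array 3 of the IgE group below arrays 1 or 2 without it. Idi1 was detected on 2 of the 3 unstimulated arrays and on all 3 IgE arrays. The mevalonate kinase gene Mvk rose by 0.71 ± 0.19 (adjusted p = 0.00808). For Pmvk, which encodes the next kinase, the change was 0.73 ± 0.28 (adjusted p = 0.0586), with 1.07, 1.09 and 0.02 in numbers 1, 2 and 3.

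Of the 10 sterol genes, 6 rose. Msmo1, which encodes a methylsterol monooxygenase, stood at 10.22, 10.39 and 9.11 unstimulated and 11.80, 11.84 and 10.75 with IgE, a change of 1.56 ± 0.15 (adjusted p = 1.63e-06). Cyp51, the lanosterol demethylase gene, stood at 7.63, 7.62 and 5.30 unstimulated and 9.76, 9.79 and 7.85 with IgE, a change of 2.28 ± 0.25 (adjusted p = 4.98e-06). Hsd17b7, a sterol ketoreductase gene, stood at 6.70, 6.96 and 5.29 unstimulated and 9.05, 9.42 and 7.29 with IgE, a change of 2.27 ± 0.34 (adjusted p = 0.000104). In these 3 genes every IgE array lay above every unstimulated array. That held for 6 of the 28 genes (Cyp51, Msmo1, Hsd17b7, Srebf1, Scd1 and Scd2), against 15.96% of all genes, and the reverse held for 1, Acss2, against 18.6%. Sqle rose by 1.17 ± 0.24, Nsdhl, a sterol dehydrogenase gene, by 0.84 ± 0.16, and the lanosterol synthase gene Lss by 0.81 ± 0.21 (adjusted p = 0.00141, 0.000924 and 0.00653). The second kept probe of Lss, with a lower mean level, gave -0.08. The 4 genes that did not pass were Sc5d at 0.35, Ebp at 0.25, Tm7sf2 at 0.05 and Dhcr7 at -0.29 (adjusted p = 0.148, 0.192, 0.894 and 0.281). Ebp, Sc5d and Dhcr7 encode an isomerase, a desaturase and a reductase of the last steps to cholesterol.

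**Figure D2:**
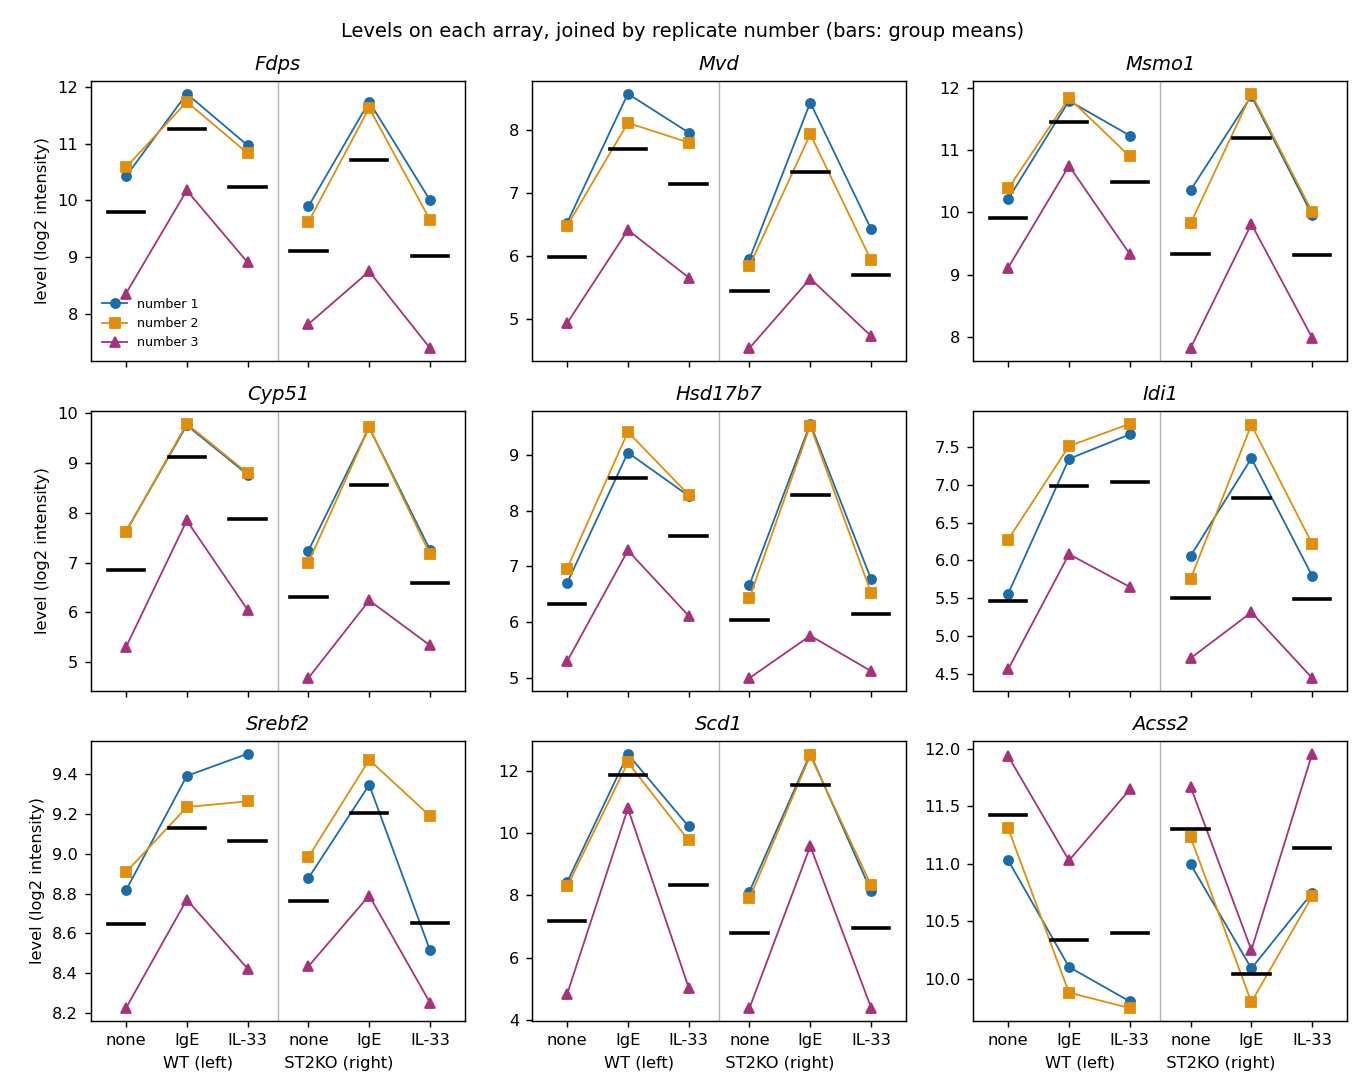
Level (log2 intensity, y axis) of 9 of the genes on each of the 18 arrays, for unstimulated (none), IgE and IL-33 cells of WT (left of each panel) and ST2KO (right), with points joined by replicate number and bars at group means. Fdps, Mvd, Msmo1, Cyp51, Hsd17b7, Idi1, Srebf2 and Scd1 are higher with IgE and Acss2 is lower within every number in both genotypes, and the line of number 3 lies apart.

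Of the 5 regulators, both SREBP genes and Insig1 rose. Srebf1 stood at 6.05, 5.69 and 5.72 unstimulated and 6.66, 6.59 and 6.48 with IgE, without overlap, a change of 0.76 ± 0.16 (adjusted p = 0.00168, and 0.0167 without the block). Srebf2 stood at 8.82, 8.91 and 8.22 unstimulated and 9.39, 9.24 and 8.77 with IgE, a change of 0.48 ± 0.14 (adjusted p = 0.0119). Insig1 stood at 8.09, 8.32 and 7.01 unstimulated and 8.30, 8.82 and 7.99 with IgE, a change of 0.57 ± 0.18 (adjusted p = 0.0249). The groups overlapped for Srebf2 and Insig1, and both were higher within every number. Scap stood at 7.58, 7.72 and 7.17 unstimulated and 7.59, 7.69 and 7.66 with IgE, with a change of 0.16 ± 0.17 (adjusted p = 0.527). Insig2 stood at 8.14, 7.92 and 9.05 unstimulated and 8.45, 8.61 and 8.56 with IgE, with a change of 0.17 ± 0.19 (adjusted p = 0.54), and number 3 went the other way from numbers 1 and 2. Stard4 stood at 9.16, 9.48 and 7.58 unstimulated and 9.87, 9.92 and 8.41 with IgE and rose by 0.66 ± 0.18 (adjusted p = 0.0112).

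The fatty acid genes split in direction. Scd1, which encodes the enzyme that puts the first double bond into stearate, stood at 8.42, 8.29 and 4.82 unstimulated and 12.54, 12.27 and 10.80 with IgE (adjusted p = 8.63e-07). Every IgE array lay above every unstimulated one. Its relative Scd2 stood at 8.14, 7.91 and 6.92 unstimulated and 9.47, 9.38 and 8.42 with IgE, also without overlap, a change of 1.43 ± 0.23 (adjusted p = 0.000165, and 0.0179 without the block). Acss2, which makes acetyl-CoA from acetate, went the other way, from 11.03, 11.31 and 11.94 to 10.10, 9.88 and 11.03, with IgE arrays 1 and 2 the lowest and IgE array 3 level with unstimulated array 1. It fell by 1.09 ± 0.21 (adjusted p = 0.000743). Of the polyunsaturated fatty acid desaturase genes, Fads2 rose by 1.14 ± 0.24 and Fads1 fell by 0.43 ± 0.10 (adjusted p = 0.00184 and 0.00432). Fads2 was detected on 2 of the 3 unstimulated arrays. Acly, the ATP citrate lyase gene, rose by 0.37 ± 0.12 (adjusted p = 0.0215), and for the elongase gene Elovl6 the change was -0.09 ± 0.18 (adjusted p = 0.739).

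Leaving out 1 of the 6 arrays compared at a time ended 6 of the 20 calls in at least 1 fit. Lss was lost without WT unstimulated array 1 (adjusted p = 0.0721). Mvk was lost without WT unstimulated array 1 or 2 (at most 0.0605), and Srebf2 without WT unstimulated array 1 or IgE array 3 (at most 0.0944). Stard4 was lost without WT unstimulated array 1 or 3 or IgE array 2 (at most 0.0685), and Acly without WT unstimulated array 1 or IgE array 1 or 3 (at most 0.18). Insig1 was lost without array 2 or 3 of either group (at most 0.168). The other 14 calls held in all 6 fits. Of these 14, the Fads1 fall was lost with the mean of a gene's probes (adjusted p = 0.0560) and with the number shared by both genotypes as the block (0.168). With median scaling Srebf2, Acly and Insig1 were lost (adjusted p = 0.120, 0.0914 and 0.0751). With arrays 1 and 2 alone, a setting chosen after seeing the data, 21 genes rose and 2 fell.

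**Figure D3:**
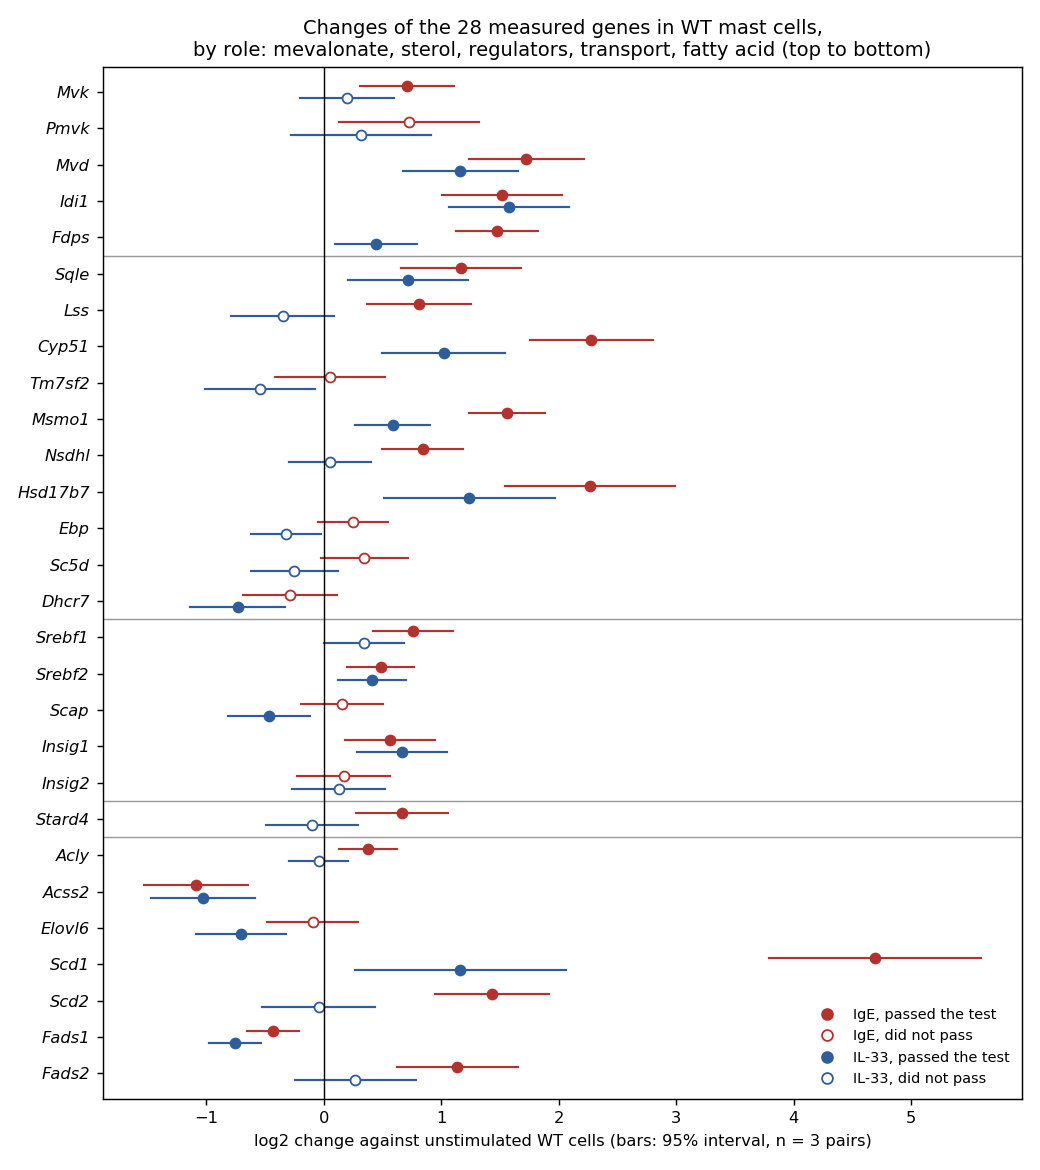
Log2 change against unstimulated WT cells (x axis) of the 28 genes (y axis, grouped by role) with IgE and with IL-33. Bars give the 95% interval, whose spread was estimated over all 18 arrays with the culture as a block. Scd1 with IgE lies farthest to the right at 4.69, and Acss2 and Fads1 lie to the left of 0 with both stimuli.

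All 33 genes were looked up for shared promoter letters, whether or not they moved with a stimulus. RefSeq promoter windows of the GRCm38.p6 assembly, running from 250 bases before to 50 after an annotated start, were matched by symbol for 26 of the 33 genes, 15 of them in the mevalonate and sterol arms, with untested genes included. No window was found for Fdps, Sqle, Fdft1, Stard4, Scd1, Scd2 or Fads1. CCAAT, the box bound by the factor NF-Y, was searched on both strands. It occurred in the windows of 21 of the 26 genes (80.8%) and of 14 of those 15 (93.3%), against 41.1% of the 27025 genes with a window. Within 100 bases before the start it occurred in 13 of the 15 (86.7%), against 22.0% of all genes. GGGCGG, the GC box, occurred in 22 of the 26 (84.6%) and 14 of the 15 (93.3%), against 38.2%. TCACNCCAC, a consensus for the sterol regulatory element, occurred in 1 of the 26 (3.85%), Hmgcs1, against 1.44%. No match of one motif overlapped a match of another. A match is a description of the letters and not a binding site.

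CCAAT was in 12 of the 13 windows of genes that rose with IgE in WT cells and in 7 of the 9 of tested genes that did not rise. The stretch from 165 to 1 bases before the start is given below for the 5 mevalonate and sterol genes with the largest rises among those with a window, on the gene's strand, 5′ to 3′, with CCAAT and its reverse complement ATTGG in capitals. These are Mvd (chr8:122443423-122443587, minus strand), Idi1 (chr13:8885441-8885605, plus strand), Msmo1 (chr8:64733579-64733743, minus strand), Cyp51 (chr5:4104698-4104862, minus strand) and Hsd17b7 (chr1:169969206-169969370, minus strand), all in GRCm38.p6. The stretches hold 2, 2, 3, 1 and 3 boxes in that order.
Mvd: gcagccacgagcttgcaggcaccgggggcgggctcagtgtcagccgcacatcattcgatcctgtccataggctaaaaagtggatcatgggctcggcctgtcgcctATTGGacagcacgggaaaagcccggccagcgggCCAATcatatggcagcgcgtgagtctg
Idi1: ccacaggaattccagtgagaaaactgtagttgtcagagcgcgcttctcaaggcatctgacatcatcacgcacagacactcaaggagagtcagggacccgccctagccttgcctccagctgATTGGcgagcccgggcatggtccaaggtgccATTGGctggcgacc
Msmo1: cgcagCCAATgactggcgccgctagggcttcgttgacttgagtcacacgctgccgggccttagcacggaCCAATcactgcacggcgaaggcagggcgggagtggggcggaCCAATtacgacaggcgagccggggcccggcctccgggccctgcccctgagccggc
Cyp51: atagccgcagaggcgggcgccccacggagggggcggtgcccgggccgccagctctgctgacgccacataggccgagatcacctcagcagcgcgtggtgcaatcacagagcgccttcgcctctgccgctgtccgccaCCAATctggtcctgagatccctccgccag
Hsd17b7: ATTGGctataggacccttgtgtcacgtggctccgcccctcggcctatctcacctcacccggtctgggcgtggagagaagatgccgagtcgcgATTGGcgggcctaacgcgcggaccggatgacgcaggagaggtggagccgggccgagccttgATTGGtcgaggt

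**Figure D4:**
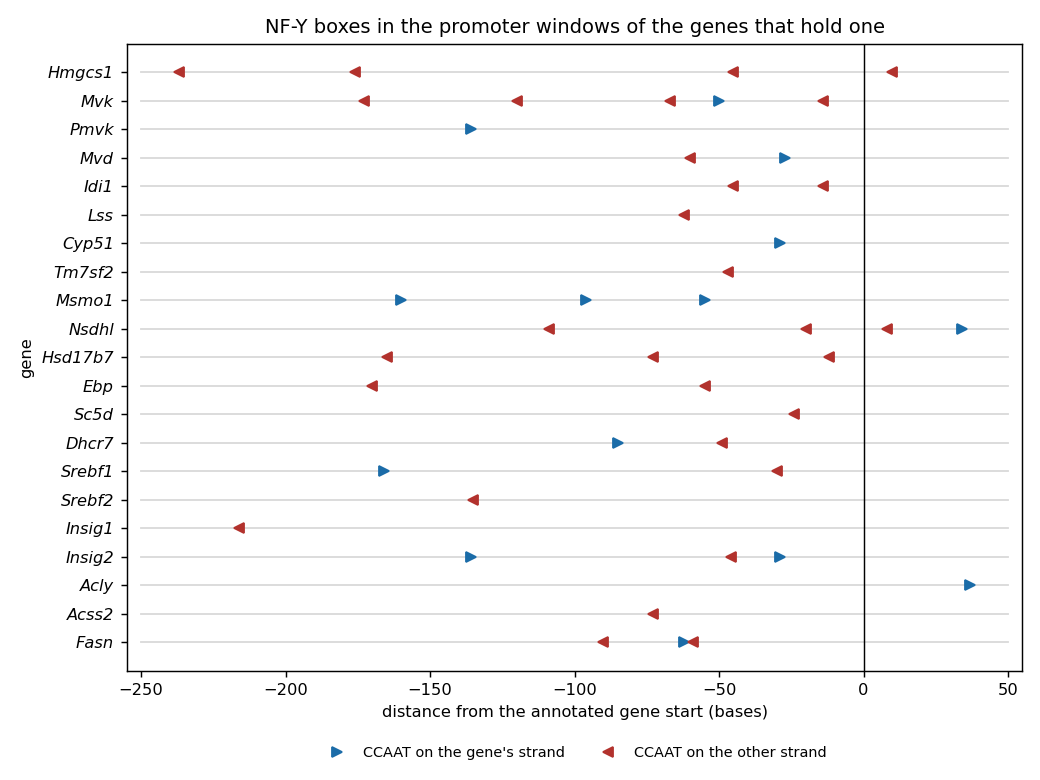
Distance of each CCAAT box from the annotated gene start (x axis, bases) in the promoter windows of the 21 genes that hold one (y axis), with the pointer giving the strand. Srebf1 has boxes in 2 windows, which are drawn on one line. Boxes of the mevalonate and sterol genes lie mostly within 100 bases before the start.

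IL-33 was then compared with no stimulation in WT cells. It raised the mevalonate genes Idi1 and Mvd, the sterol genes Cyp51 and Hsd17b7 and the desaturase gene Scd1 by over 2-fold, and it lowered Acss2, Fads1, Dhcr7, Elovl6 and Scap. Of the 28 genes 10 rose and 5 fell, against 13.5% and 18% of all genes (31.5% together), with a median change of 0.16 over the 28 and -0.02 over all. All 10 genes that rose had also risen with IgE, and Acss2 and Fads1 fell with both. The 2 comparisons share their unstimulated arrays. Without the culture block none of the 28 passed, with an adjusted p of 0.18 for Dhcr7 to 0.823 for Fdps among the 15, against 11.8% of all genes called. Of the 7 macrophage and dendritic cell markers 3 rose and none fell, Cd74 by 2.39 ± 0.35, H2-Ab1 by 0.63 ± 0.21 and Adgre1 by 0.54 ± 0.19 (adjusted p = 8.24e-05, 0.0280 and 0.0408). Of the 3 basophil markers 1 rose, Mcpt8 by 1.08 ± 0.31 (adjusted p = 0.0138), and 1 fell, and of the 10 mast cell markers 2 rose. The part of these markers in the changes was not tested.

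In the mevalonate arm Idi1, Mvd and Fdps rose. Idi1 stood at 7.67, 7.81 and 5.65 on the IL-33 arrays, against 5.56, 6.28 and 4.56 unstimulated, a change of 1.58 ± 0.24 (adjusted p = 0.000116). Mvd stood at 7.96, 7.80 and 5.65, a change of 1.16 ± 0.23 (adjusted p = 0.00107). Fdps stood at 10.97, 10.83 and 8.91, a change of 0.45 ± 0.16 (adjusted p = 0.0484). All 3 were higher within every number and all 3 overlapped with the unstimulated group. For Pmvk the change was 0.32 ± 0.28 and for Mvk 0.20 ± 0.19 (adjusted p = 0.428 and 0.471).

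In the sterol arm 4 genes rose and 1 fell. Cyp51 stood at 8.77, 8.80 and 6.05 with IL-33, a change of 1.02 ± 0.25 (adjusted p = 0.00453), and Msmo1 at 11.24, 10.90 and 9.33, a change of 0.59 ± 0.15 (adjusted p = 0.00717). Hsd17b7 rose by 1.24 ± 0.34 and Sqle by 0.72 ± 0.24 (adjusted p = 0.0108 and 0.0323). Dhcr7, whose enzyme makes cholesterol in the last step, stood at 6.20, 6.33 and 5.68 unstimulated and 5.40, 5.67 and 4.94 with IL-33, and every IL-33 array lay below every unstimulated one. That held for 5 of the 28 genes, Dhcr7, Tm7sf2, Ebp, Scap and Elovl6, near the 16.6% of all genes, and the reverse for 0 of the 28, against 13.5%. Dhcr7 fell by 0.73 ± 0.19 (adjusted p = 0.00738). The other 5 were Tm7sf2 at -0.54, Lss at -0.35, Ebp at -0.32, Sc5d at -0.25 and Nsdhl at 0.06, with an adjusted p of 0.073 for Tm7sf2 to 0.834 for Nsdhl. Sc5d was detected on none of the 3 IL-33 arrays and on 1 of the 3 unstimulated ones.

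Among the regulators Insig1 stood at 8.79, 8.78 and 7.84 with IL-33, a rise of 0.67 ± 0.18 (adjusted p = 0.00995). Srebf2 stood at 9.503, 9.26 and 8.42, a rise of 0.41 ± 0.14 (adjusted p = 0.0284). Scap stood at 7.12, 6.97 and 6.98, all below the 3 unstimulated arrays, and fell by 0.47 ± 0.17 (adjusted p = 0.0418). Srebf1 stood at 6.17, 6.31 and 6.01, a change of 0.35 ± 0.16 (adjusted p = 0.116). Insig2 stood at 8.42, 8.41 and 8.66, a change of 0.13 ± 0.19 (adjusted p = 0.659). For Stard4, at 9.25, 8.87 and 7.79, the change was -0.10 ± 0.18 (adjusted p = 0.734). Insig1 and Srebf2 were higher within every number, and their groups overlapped.

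Of the 7 fatty acid genes, 3 fell and 1 rose. Fads1 stood at 13.17, 13.17 and 11.81 unstimulated and 12.30, 12.26 and 11.31 with IL-33, lower within every number, and fell by 0.76 ± 0.10 (adjusted p = 4.58e-05). Acss2 stood at 9.80, 9.75 and 11.65 and fell by 1.03 ± 0.21 (adjusted p = 0.00121), with -1.23, -1.56 and -0.29 in numbers 1, 2 and 3. Elovl6, which encodes an elongase, stood at 6.64, 6.92 and 6.18 unstimulated and 6.12, 6.12 and 5.39 with IL-33, without overlap, and fell by 0.71 ± 0.18 (adjusted p = 0.00676). Scd1 stood at 10.22, 9.77 and 5.04 and rose by 1.16 ± 0.42 (adjusted p = 0.0466), a change of 1.79 and 1.48 in numbers 1 and 2 and of 0.22 in number 3. Fads2, Acly and Scd2 did not pass, at 0.27, -0.04 and -0.04 (adjusted p = 0.444, 0.817 and 0.917).

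Leaving out 1 of the 6 arrays at a time kept 6 of the 15 calls in every fit: Idi1, Mvd, Cyp51, Acss2, Fads1 and Elovl6. Sqle was lost in all 6 fits (adjusted p up to 0.181). Fdps was lost in every fit but the one without WT unstimulated array 2 (up to 0.198), Scap in every one but that without WT unstimulated array 3 (up to 0.231), and Scd1 in every one but that without IL-33 array 3 (up to 0.322). Srebf2 was lost without array 1 or 2 of either group (up to 0.196), and Hsd17b7 without IL-33 array 1 or WT unstimulated array 1 or 2 (up to 0.0738). Msmo1 was lost without array 1 of either group (up to 0.0989), Insig1 without WT unstimulated array 3 or IL-33 array 1 (up to 0.0815), and Dhcr7 without IL-33 array 1 (0.0617). When arrays were scaled to a common median instead of quantile-normalized, the median of all genes moved from -0.02 to -0.16 and that of the 28 genes from 0.16 to -0.02, and 4 rose and 7 fell. Idi1, Mvd, Cyp51 and Hsd17b7 were the 4 that still rose.

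A direct comparison of IL-33 with IgE in WT cells gave lower levels with IL-33 for 15 of the 28 genes and higher levels for none. In all genes tested 8.25% were lower and 7.58% higher, 15.8% together, and the median difference was -0.58 over the 28 genes and -0.01 over all. The fall was widest for Scd1, at -3.53 ± 0.42 (adjusted p = 2.11e-05), and next for Scd2 at -1.48 ± 0.23 (adjusted p = 0.000238). In the cholesterol arms Fdps, Msmo1, Lss, Cyp51, Nsdhl, Ebp and Sc5d were lower with IL-33, with a difference of -1.26 ± 0.25 in Cyp51 and -1.16 ± 0.21 in Lss (adjusted p = 0.00181 and 0.000875). Sc5d was detected on 2 of 3 IgE arrays and no IL-33 array, so its difference is a bound, at least 1.14-fold higher with IgE (adjusted p = 0.0273). Stard4, Scap, Acly, Fads2, Elovl6 and Fads1 were also lower, with a difference of -0.76 ± 0.18 in Stard4 and -0.62 ± 0.17 in Scap.

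No difference between the stimuli was detected for Idi1, Insig1, Srebf2 or Acss2, among the 13 genes that did not pass. The difference was 0.06 for Idi1 (95% interval -0.45 to 0.57), 0.10 for Insig1 (-0.28 to 0.49), -0.07 for Srebf2 (-0.36 to 0.22) and 0.06 for Acss2 (-0.38 to 0.50). Without the block 1 of the 28 passed, Scd2 at 0.029, against 4.43% of all genes, and the other 14 had an adjusted p from 0.103 for Sc5d to 0.939 for Fads1. The count was 7 without IL-33 array 2 and 12 at most with 1 array left out, and Scd1, Scd2, Fdps, Lss, Msmo1, Cyp51 and Nsdhl passed in all 6 fits. Fads2 was lost in 6 fits, Elovl6 and Fads1 in 5, Acly and Sc5d in 4, Ebp and Scap in 3 and Stard4 in the 1 without IL-33 array 2. Of the 7 macrophage and dendritic cell markers tested, 4 were higher with IL-33 than with IgE, among them Cd74 by 2.43 ± 0.35, and their part in the differences was not tested.

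The neighbouring pathways were read from lists of genes that are not among the 33. Over all genes tested 14.6% rose and 17.9% fell with IgE in WT cells (32.5% together), and 13.5% rose and 18% fell with IL-33 (31.5%). Of 10 tested of 18 other genes of sterol synthesis and uptake, 4 rose and 1 fell with IgE in WT cells (50% called), and 3 rose and 1 fell with IL-33 (40%). Nus1, which encodes a subunit of the dolichol synthesis enzyme, rose by 1.37 ± 0.13 with IgE and 1.38 ± 0.13 with IL-33 (adjusted p = 1.59e-06 and 1.63e-06). Lbr, the gene of a nuclear envelope protein with sterol reductase activity, fell by 0.58 ± 0.12 and 0.47 ± 0.12 (adjusted p = 0.00105 and 0.00523). Of 15 tested of 20 other lipid synthesis genes, 5 rose and 2 fell with each stimulus (46.7%). Me1, the malic enzyme gene, rose by 1.57 ± 0.27 with IgE and 1.97 ± 0.27 with IL-33 (adjusted p = 0.000354 and 4.80e-05). Hacd3, a dehydratase gene of fatty acid elongation, rose by 2.69 ± 0.22 with IL-33 (adjusted p = 3.69e-07), while its change with IgE was 0.58 ± 0.22 (adjusted p = 0.0521). The acyl-CoA synthetase gene Acsl4 rose with both, by 1.32 ± 0.19 and 0.80 ± 0.19 (adjusted p = 6.71e-05 and 0.00407).

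Of 8 tested of 11 genes of cholesterol efflux and the liver X receptors, 2 rose with IgE and none fell (25%). With IL-33 none rose and 1 fell (12.5%), and both shares lay below that of all genes. The liver X receptor genes themselves, Nr1h2 and Nr1h3, and the efflux gene Abca1 were not among the genes tested. Scarb1, the gene of a lipoprotein receptor, rose by 1.01 ± 0.16 with IgE (adjusted p = 0.000151), and Lpcat3, a phospholipid acyltransferase gene, fell by 0.80 ± 0.12 with IL-33 (adjusted p = 0.000121). Of 13 tested of 16 fatty acid oxidation genes, none rose and 2 fell with IgE (15.4%), and 1 rose and 4 fell with IL-33 (38.5%). Decr1, which encodes a reductase for unsaturated fatty acids, rose by 1.23 ± 0.27 with IL-33 (adjusted p = 0.00211). The 16 cell cycle genes tested gave 2 rises and 2 falls with IgE and 4 falls with IL-33 (25% each). The 10 housekeeping genes gave 3 rises with IgE (30%), and 1 rise and 1 fall with IL-33 (20%).

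In ST2KO cells too, IgE raised 10 of the 15 tested mevalonate and sterol genes and Scd1 and lowered Acss2. Of the 28 genes 17 rose and 2 fell, against 15.1% and 18.7% of all genes (33.8% together), with a median change of 0.66 over the 28 and -0.04 over all. Scd1 stood at 8.13, 7.91 and 4.38 unstimulated and 12.55, 12.50 and 9.58 with IgE, a rise of 4.74 ± 0.42 (adjusted p = 8.74e-07). Cyp51 stood at 7.24, 7.001 and 4.68 unstimulated and 9.71, 9.72 and 6.24 with IgE, a rise of 2.25 ± 0.25 (adjusted p = 5.56e-06), and Msmo1 at 10.36, 9.82 and 7.82 unstimulated and 11.88, 11.91 and 9.81 with IgE, a rise of 1.87 ± 0.15 (adjusted p = 3.63e-07). The third IgE value of each of these genes was placed by rank from the authors' table. Scd1, Cyp51, Mvd, Idi1, Mvk and Fads2 were each detected on 2 of the 3 unstimulated ST2KO arrays. Part of their rise was thus measured from an undetected level. The 17 genes that rose and the 2 that fell, Acss2 and Fads1, had the same call in WT cells, and Acly, which passed in WT cells, stood at 0.30 ± 0.12 here (adjusted p = 0.0557). The 5 mevalonate and sterol genes that did not pass were Pmvk at 0.66, Tm7sf2 at 0.46, Ebp at 0.07, Sc5d at -0.01 and Dhcr7 at -0.20.

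The rise was also seen in the mevalonate genes Fdps at 1.60 ± 0.16, Mvd at 1.89 ± 0.23, Idi1 at 1.31 ± 0.24 and Mvk at 0.60 ± 0.19 (adjusted p = 3.24e-06, 1.53e-05, 0.000535 and 0.0209). Srebf1 rose from 6.12, 5.87 and 5.64 to 6.88, 6.80 and 6.34, by 0.80 ± 0.16 (adjusted p = 0.0011), and Srebf2 by 0.44 ± 0.14 (adjusted p = 0.0201). Acss2, for which the incomplete array also gave an intensity, stood at 10.996, 11.23 and 11.67 unstimulated and 10.09, 9.80 and 10.25 with IgE, without overlap, and fell by 1.25 ± 0.21 (adjusted p = 0.000225). It was the 1 gene of the 28 with every IgE array below every unstimulated one, against 15.9% of all genes, and 3, Srebf1, Scd1 and Scd2, lay wholly above, against 12.9%. Without the block Srebf1 and Scd2 passed, against 12.6% of all genes, and the other 17 had an adjusted p from 0.0516 for Scd1 to 0.717 for Fads1. Without the incomplete array 21 of the 28 passed, and with 1 array left out the count was lowest, at 13, without ST2KO unstimulated array 2. The Fads1 fall was again lost with the mean of probes and with the shared number as the block (adjusted p = 0.0588 and 0.0988). Fads2 and Lss were also lost with the mean of probes, Lss at an adjusted p of 0.422, and its second probe gave -0.35. Insig1 was lost with the shared number as the block and Srebf2 with median scaling. With 1 array left out, Mvk, Insig1 and Fads2 were lost in 4 of 6 fits, Lss and Stard4 in 3 and Srebf2 in 2. Of the 7 macrophage and dendritic cell markers 2 fell, Lyz2 by 0.91 ± 0.14 and Adgre1 by 0.70 ± 0.19 (adjusted p = 0.000146 and 0.00907). Of the 3 basophil markers 1 rose, Mcpt8 by 1.33 ± 0.31 (adjusted p = 0.00346), and their part in the changes was not tested.

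No response to IL-33 was detected in ST2KO cells. None of the 28 genes passed, as none of the 10529 did (0% with the block and 0% without), and the limma p before adjustment was under 0.05 for 390 of all genes and 0 of the 28. The median change was 0.01 over the 28 genes, and the changes ran from -0.19 for Srebf1 to 0.28 for Cyp51. For Idi1 the change was -0.02 (95% interval -0.53 to 0.49), with levels of 6.06, 5.76 and 4.70 unstimulated and 5.79, 6.22 and 4.44 with IL-33. For Mvd it was 0.25 (-0.24 to 0.74) and for Fads1 -0.10 (-0.32 to 0.12). The interval of Idi1 ended below the WT response of 1.58, and that of Fads1 ended above the WT response of -0.76.

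**Figure D5:**
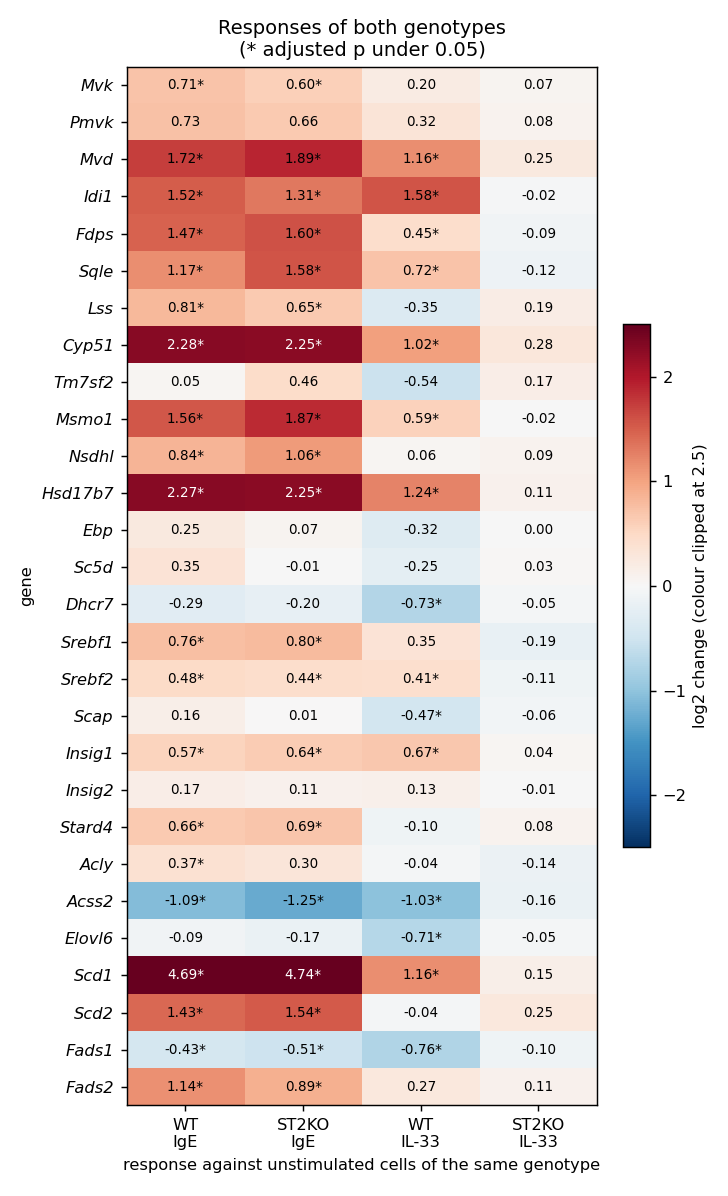
Log2 change of the 28 genes (y axis) with IgE and with IL-33 in WT and ST2KO cells (x axis), with colour for the change and a star for an adjusted p under 0.05. The IgE columns of both genotypes are alike in direction for the starred genes, and no gene is starred for IL-33 in ST2KO cells.

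The difference between the genotypes' responses was tested as an interaction, coded as the ST2KO response minus the WT response. For IgE none of the 28 genes and none of all genes passed (0% with and without the block), the p before adjustment was under 0.05 for 298 of all genes and 0 of the 28, and the median difference was -0.04. The intervals were wide, from -1.22 to 1.32 for Scd1 and from -0.37 to 0.61 for Fdps. For IL-33, 1 gene passed in each direction, Idi1 lower and Fads1 higher, against 6.63% of all genes lower and 8.94% higher, 15.6% together. In Idi1 the difference was -1.60 ± 0.34 (adjusted p = 0.00451), with WT changes of 2.11, 1.53 and 1.09 and ST2KO changes of -0.26, 0.46 and -0.26 in numbers 1, 2 and 3. In Fads1 the WT changes were -0.87, -0.91 and -0.50 and the ST2KO changes -0.12, 0.00 and -0.19, a difference of 0.66 ± 0.15 (adjusted p = 0.0064). Every WT change of each gene lay on one side of its ST2KO changes. The Fads1 call was lost with the mean of a gene's probes, at a difference of 0.24 (adjusted p = 0.316), and with the number shared by both genotypes as the block (0.207).

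The next smallest adjusted p were 0.0569 for Acss2, with a difference of 0.87 ± 0.29, 0.0692 for Msmo1 at -0.60 ± 0.21 and 0.0719 for Mvd at -0.91 ± 0.33. Without the block none of the 28 passed, at 0.531 for Idi1 and 0.849 for Fads1, against 2.72% of all genes. With arrays 1 and 2 alone, a setting chosen after seeing the data, 13 of the 28 passed, 8 lower and 5 higher, against 26.9% of all genes. Scd1 then differed by -1.42, Idi1 by -1.72, Hsd17b7 by -1.35 and Acss2 by 1.01. The count was 9 without the incomplete array and up to 7 with 1 array left out, without WT IL-33 array 3.

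Unstimulated ST2KO and WT cells were compared with the number shared by both genotypes as a block. The fit used the arrays of all groups, so arrays of the same culture counted as separate samples. The spread between cultures may thus be understated, and the p-values of this comparison too small. None of the 28 genes passed, and 0.199% of all genes did (0.0095% without the block). The 21 calls among all genes fell to 2 with the arrays of the compared groups alone and to 3 with the other replicate block. The median difference, ST2KO minus WT, was -0.27 over the 28 genes and 0.01 over all, and 8 of the 28 had a p under 0.05 before adjustment, as did 882 of all genes. Fdps had the smallest p, at -0.68 ± 0.20 (adjusted p = 0.25), with -0.53, -0.96 and -0.54 in numbers 1, 2 and 3. Sqle was at -0.90 ± 0.40, Msmo1 at -0.57 ± 0.22 and Nsdhl at -0.57 ± 0.21 (adjusted p = 0.577, 0.495 and 0.45). Srebf1 and Srebf2 were at 0.06 (95% interval -0.27 to 0.39) and 0.12 (-0.21 to 0.44). With arrays 1 and 2 alone, chosen after seeing the data, 7 of the 28 passed, all lower in ST2KO, against 5.77% of all genes in either direction. These were Fdps at -0.75, Scd2 at -0.79, Elovl6 at -0.92, Sqle at -0.46, Cyp51 at -0.51, Stard4 at -0.50 and Mvd at -0.61. The 16 cell cycle genes had a median difference of -0.49 with none past the threshold, and the 7 macrophage and dendritic cell markers one of -0.41, also with none. Among the 3 basophil markers Prss34 passed in the main fit, as 1 of the 21 genes called, at -1.36 ± 0.22 (adjusted p = 0.0105). It was lower in ST2KO in all 3 numbers, and the limit on the p-values given above applies to its call. The part of these lists was not tested.

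Genes outside the list were ranked by likeness to the mean of the standardised mevalonate and sterol genes over the 18 arrays, which share cultures and the offset of number 3. The 5 most alike were Tmem97 (r = 0.976), Odc1 (0.958), Ptprg (0.958), Erg28 (0.957) and Psmc3 (0.952). After each culture's mean was removed the first 5 were Zfyve21 (0.987), Peli1 (0.980), C5ar1 (0.980), Nxn (0.976) and Diaph1 (0.975), and Tmem97 stood at 0.953. Among the 28 genes themselves, those of the 2 cholesterol arms being part of the mean, Stard4 stood at 0.976 over the 18 arrays, Fads2 at 0.966, Scd1 at 0.877 and Acss2 at -0.76. With each culture's mean removed these were 0.931, 0.969, 0.890 and -0.67. The sign depended on the measure for Insig2, at -0.55 and then 0.43, and for Fads1, at 0.71 and then -0.41.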

How the data were processed

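RNA of mast cells was hybridised to 18 Illumina bead arrays, 3 from each of 6 numbered cultures. The deposited scanner table holds a summarised intensity and a detection p-value per probe and array, not yet normalized, per the file headers. The authors' deposited table of the same arrays holds log2 values whose distributions are the same on every array, with a median of 4.24, and how they were made is not given in the sources used here. Intensities were background-corrected and quantile-normalized with neqc (offset 16) and put on the log2 scale in limma 3.58.1 under R 4.3.3. They correlated with the authors' values at 0.992 on the first array. On the incomplete array, each probe took the value of its rank in the authors' table from the mean distribution of the 17 complete arrays.

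A probe was kept when 3 or more complete arrays gave a detection p below 0.05, and the kept probe with the highest mean stood for its gene. Gene symbols came from the platform annotation, which names 1 gene for 34885 of 45281 probes, several for 18 and none for 10378. Each comparison was fitted with limma (eBayes with trend) over 10529 genes and Benjamini-Hochberg adjusted at 0.05. The culture number was a block for the stimuli and their interactions, and the number shared by both genotypes for unstimulated ST2KO against WT. The sample descriptions number the cultures. The deviations of same-numbered arrays correlated at 0.511 to 0.918 within a genotype (6 pairs of groups) and 0.397 to 0.727 between genotypes (9 pairs). The same number was the best match in 18 of 18 cases within a genotype and in 20 of 27 between genotypes. No label states that same-numbered WT and ST2KO cultures belong together. Whether the numbered cultures came from separate animals is not stated, so p-values cannot be taken to measure the spread between animals. They rest on the spread left after block differences were removed, estimated over all 18 arrays. For Fdps with IgE in WT cells the SE was 0.16 with the block and 0.94 without. The test was also run on simulated data, with number offsets shared by both genotypes and independent noise. These data held no effect of a culture within a genotype, so the run cannot check the test for that.

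Values on every array are given for the regulators and for the 3 genes of each role with the smallest adjusted p for each stimulus in WT cells. From each other list up to 3 genes with the smallest adjusted p in a comparison are named, and for likeness the first 5 genes. The genes and lists were chosen with earlier results of these data known. Alternatives to the block, background correction, scaling, filters, probes and arrays were run. Figures were drawn with matplotlib 3.10.9 in Python 3.11.15.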

Additional observations from a re-analysis of the deposited data

Results flagged for a closer look

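The response to IL-33 differed between the genotypes by the test of the difference itself, ST2KO response minus WT response, for 2 of the 28 genes (7.14%), below the 15.6% of all genes. The difference was -1.60 ± 0.34 log2 units for Idi1 (adjusted p = 0.00451) and 0.66 ± 0.15 for Fads1 (adjusted p = 0.0064). Without the culture block the adjusted p was 0.531 and 0.849. Both passed in all 12 fits that left out 1 array. Fads1 did not pass with the mean of a gene's probes, at 0.24 (adjusted p = 0.316), or with the number shared by both genotypes as the block (0.207), while Idi1 passed with both.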

How the results depend on the processing

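The culture block decides most calls. With no replicate block 2 of the 28 genes passed for IgE in WT cells, 2 for IgE in ST2KO cells, 0 for IL-33 in WT cells, 1 for IL-33 against IgE and 0 for the interaction of genotype and IL-33, and over all genes the calls went from 3426 to 1249, 3558 to 1326, 3315 to 1246, 1667 to 466 and 1639 to 286, and from 21 to 1 between the genotypes. With the number shared by both genotypes as the replicate block 8 passed for IL-33 in WT cells and 1 for that interaction. With median scaling the median for IL-33 in WT cells was -0.017, for IL-33 against IgE -0.65 and for the interaction with IL-33 0.038, with 5 genes past the threshold there and 1, Fdps, between the genotypes. The median of all genes then moved from -0.02 to -0.16 for IL-33, from 0.02 to 0.20 for that interaction and from 0.01 to -0.12 between the genotypes. The share of rises among all calls went from 42.8% to 22.2% for IL-33 in WT cells, 45.0% to 35.4% for IgE, 47.9% to 30.4% for IL-33 against IgE, 57.4% to 80.1% for the interaction and 33.3% to 12.5% between the genotypes. With no background correction the median was 0.42 for IgE in WT cells and -0.39 for IL-33 against IgE, which was -0.59 on the authors' log2 values and -0.57 both with no detection filter and with a stricter one. For the interaction with IL-33, 4 genes passed with the mean of a gene's probes, Fads1 no longer among them, 6 with the compared groups alone and 9 without the incomplete array. With arrays 1 and 2 alone, chosen after seeing the data, the median was 0.33 for IL-33 in WT cells and -0.63 for IL-33 against IgE, and 7 genes passed between the genotypes and 13 for the interaction, with 607 and 2836 of all genes. The causes were not tested.

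With 1 array left out the calls ranged from 15 to 20 for IgE and 6 to 13 for IL-33 in WT cells, 13 to 21 for IgE in ST2KO cells, 7 to 12 for IL-33 against IgE and 2 to 7 for the interaction with IL-33, and stayed at 0 for IL-33 in ST2KO cells, the genotypes and the interaction with IgE. The medians ranged from 0.64 to 0.82, 0.088 to 0.32, 0.51 to 0.93, -0.68 to -0.48 and -0.24 to -0.0039 in that order, and from -0.077 to 0.14, -0.35 to -0.19 and -0.16 to 0.16 in the last 3. Of the values of single genes under all settings run, 4215 kept their side of the threshold, 227 lost a call, 86 gained one and 0 reversed a call. The 4215 include values with no call to lose, and such values could change sign and still count as kept. With no replicate block alone 66 calls were lost. With 3 arrays in a group, small differences could be missed, and the stated median intervals are not a limit of detection.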
